A study of Rattus norvegicus with 10 samples.

Results

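Protein phosphatase 2A (PP2A) subunits were followed in rat β-cells, which make and release insulin, after knockdown of Scrt1, a zinc-finger transcriptional repressor of the Snail family. The members were 10 genes named by subunit class, out of 23918 genes in the expression table: the scaffold genes Ppp2r1a and Ppp2r1b, the catalytic genes Ppp2ca and Ppp2cb, the B55 regulatory genes Ppp2r2a and Ppp2r2b, and the B56 regulatory genes Ppp2r5a, Ppp2r5b, Ppp2r5c and Ppp2r5e. All 10 were present in the table and all 10 passed the filter on low genes that left 12941 genes for testing.

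Adult Sprague-Dawley rat islet cells were sorted by FACS on β-cell autofluorescence, and the sorted β-cells were plated and transfected with Lipofectamine RNAiMAX. The siScrt1 group received 4 pooled siRNAs directed to Scrt1 and the siCtrl group a negative control siRNA, so both groups had gone through the same sorting, plating and transfection. RNA was extracted at 48 h, and 5 libraries per group were sequenced, named siCtrl 1 to 5 and siScrt1 A to E. The labels give no genetic modification and do not say which animals or cultures each library came from, so the p-values measure only the spread between these libraries, which may be technical.

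PP2A is a serine/threonine phosphatase built from a scaffold (A), a catalytic (C) and a regulatory (B) subunit. The scaffold is a curved stack of helical repeats that holds the catalytic subunit and lets alternative B subunits dock, and the B subunit directs the enzyme to its substrates and to its place in the cell. The scaffold and the catalytic subunit are each encoded by a pair of close paralogs, whereas the B subunits come from several unrelated families, among them B55 and B56. PP2A is known for removing phosphates from Akt and from many cell cycle proteins, and phosphorylation of such proteins takes part in insulin secretion and in β-cell growth.

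Of the 10 genes, the mean level of the scaffold gene Ppp2r1b fell by 23.0% after Scrt1 knockdown, whereas that of its more abundant paralog Ppp2r1a differed by 0.742%. The mean level of the catalytic gene Ppp2cb differed by -19.3%. It did not pass the threshold in the fit without pairing of the libraries (limma, adjusted p = 0.109). With the libraries paired by number it did (limma, adjusted p = 0.0277). Its paralog Ppp2ca and the B55 and B56 genes did not pass the threshold, and their mean levels differed by between -5.93% and 4.48%.

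The libraries held 11901342 to 17444034 reads, and the read totals of the groups did not differ beyond the spread (exact two-sided permutation test, p = 0.635). Scrt1 itself was checked first. Its level, in TPM (a length-corrected abundance, here after scaling between libraries), was 8.78, 6.34, 8.60, 10.2 and 6.75 in siCtrl 1 to 5, and 3.40, 2.53, 2.58, 1.24 and 0.928 in siScrt1 A to E. The groups did not overlap, and the mean Scrt1 level fell by 73.7%, with 24 to 269 reads per library behind these values. On the log2 scale its change was -2.06 (SE 0.308, limma, adjusted p = 0.00618), and -1.82 without siCtrl 4 and siScrt1 D, where it was not called (adjusted p = 0.0596). The 8 β-cell markers took up 13.0% of all reads. No tested marker in the α, δ and PP, duct, mesenchymal or immune lists differed between groups at the threshold. None of the acinar and endothelial markers passed the filter, so these were not tested. The 6 mesenchymal markers (collagen, PDGF receptor and decorin genes), of which 1 passed the filter and 0 were at 0 in every library, summed to 16.8 CPM (reads scaled to the library total) in siCtrl 4 and 30.6 CPM in siScrt1 D, against 3.71 to 6.86 CPM in the other siCtrl and 4.72 to 8.68 CPM in the other siScrt1 libraries. In bulk RNA, fewer cells of a type and less RNA per cell cannot be told apart.

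The TPM scale corrects for annotated transcript length, so levels of different genes can be set side by side as far as those lengths hold. The annotated Ppp2ca transcript has 930 bases and that of Ppp2cb 1585. In CPM, without length correction, Ppp2ca was at 30.0 to 35.9 in siCtrl, below Ppp2cb at 46.2 to 62.1. In siCtrl cells Ppp2r1a had the highest level of the 10 genes (70.6 ± 6.76 TPM, SD, n = 5), above 92.3% of the tested genes. It was followed by Ppp2r5c (55.6 ± 2.16 TPM), Ppp2r5a (51.3 ± 2.51 TPM), Ppp2ca (39.7 ± 2.29 TPM), Ppp2cb (32.8 ± 3.15 TPM), Ppp2r2a (30.1 ± 1.65 TPM), Ppp2r5b (29.3 ± 3.56 TPM) and Ppp2r5e (27.7 ± 2.65 TPM). Ppp2r1b (19.3 ± 1.02 TPM) and Ppp2r2b (2.39 ± 0.815 TPM) were the lowest, and Ppp2r2b stood above 20.6% of the tested genes. The siCtrl ranges of the neighbours Ppp2r5c and Ppp2r5a, Ppp2cb and Ppp2r2a, Ppp2r2a and Ppp2r5b, and Ppp2r5b and Ppp2r5e overlapped. Within single libraries Ppp2r5c was above Ppp2r5a in 5 of 5 siCtrl libraries and in 8 of 10 in all. In the other overlapping pairs the first gene was above in 4, 3 and 3 of the 5 siCtrl libraries. The order within those pairs is not separated from the spread. The other neighbours in the order did not overlap in siCtrl, and Ppp2r1a was above Ppp2r5c in 10 of 10 libraries.

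**Figure D1:**
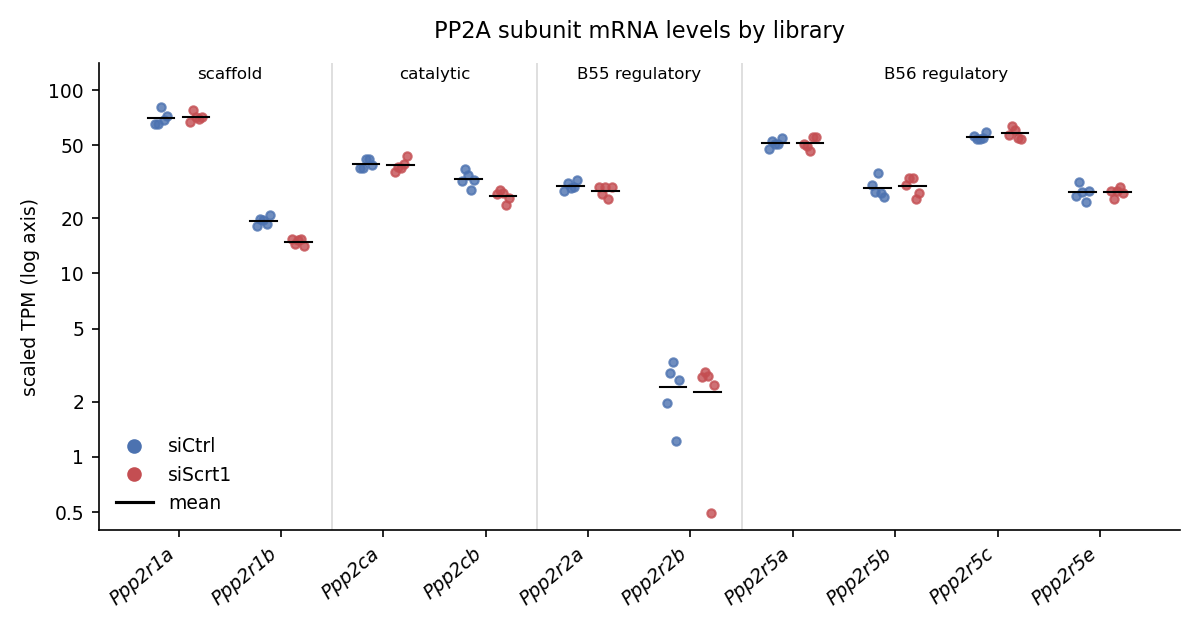
Scaled TPM (log axis) of the 10 PP2A subunit genes, 1 point per library and a bar at the group mean, siCtrl in blue and siScrt1 in red, 5 libraries each. The Ppp2r1b points of the groups are apart, at 18.1 to 20.7 TPM in siCtrl and 14.1 to 15.4 TPM in siScrt1, whereas the other 9 genes overlap.

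The scaffold paralogs differed in level and in their response. The sequences just upstream of their annotated starts are shown as a description. Whether they bear on the different changes of the paralogs was not tested. They are RefSeq sequences of the GRCr8 assembly, 250 bases each, whereas the reads were assigned to transcripts of the earlier Rnor6 assembly. Capitals mark CCAAT (or ATTGG, its reverse complement) and GGGCGTGGC (reverse complement GCCACGCCC), both searched on both strands. The Ppp2r1a window lies at chr1:69212948-69213197 and the Ppp2r1b window at chr8:60092309-60092558, both on the plus strand and upstream of the annotated transcription start.
Ppp2r1a: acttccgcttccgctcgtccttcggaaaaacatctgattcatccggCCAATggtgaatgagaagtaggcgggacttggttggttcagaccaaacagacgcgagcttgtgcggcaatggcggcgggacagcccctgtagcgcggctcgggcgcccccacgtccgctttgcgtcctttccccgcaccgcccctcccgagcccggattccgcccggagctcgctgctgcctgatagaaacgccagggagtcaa
Ppp2r1b: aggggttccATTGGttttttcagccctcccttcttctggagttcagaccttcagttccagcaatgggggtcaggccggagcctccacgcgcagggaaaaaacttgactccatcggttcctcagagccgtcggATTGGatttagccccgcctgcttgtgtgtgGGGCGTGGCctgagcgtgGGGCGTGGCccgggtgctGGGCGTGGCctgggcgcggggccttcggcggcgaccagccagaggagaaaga

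The windows were close in base composition, with 63.2% G or C for Ppp2r1a and 63.6% for Ppp2r1b, above the median of 51.2% over all 33469 windows of this length. The Ppp2r1b window held 2 copies of CCAAT and 3 copies of GGGCGTGGC, against 1 and 0 in the Ppp2r1a window. Of all windows, 34.0% held CCAAT at least once and 9.42% at least 2 copies, and 0.0418% held at least 3 copies of GGGCGTGGC. The latter motif and CCAAT were chosen for counting after these sequences had been read. CAGGTG (reverse complement CACCTG), the E-box core bound by Snail-family factors, was found in neither scaffold window. It was found in 1 of the 10 windows of the 8 members with an entry, a Ppp2r2b window, and in 15.9% of all windows. Sequence outside the windows was not searched, and no binding was measured. The authors list Ppp2r1b among the potential targets of Scrt1, which they defined by a Scrt1 motif in accessible chromatin near a gene. Ppp2cb and Ppp2r2a have no entry.

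Ppp2r1b, the less abundant A subunit (the β scaffold), was at 18.1, 19.7, 19.6, 18.6 and 20.7 TPM in siCtrl 1 to 5. In siScrt1 A to E it was at 15.3, 14.5, 15.3, 15.4 and 14.1 TPM. Every siScrt1 library lay below every siCtrl library, and the siScrt1 library of each same-numbered pair was lower in 5 of 5 pairs. The group means were 19.3 ± 1.02 and 14.9 ± 0.587 TPM (SD, n = 5 each). The log2 change was -0.38 (SE 0.0584, 95% interval -0.51 to -0.25, limma, adjusted p = 0.00707), that is 0.768 times the siCtrl level (interval 0.704 to 0.839). It rested on 758 to 1339 reads per library. The read estimates were whole in all 10 libraries, whereas a read divided between transcripts gives a fraction. The call was lost when siCtrl 4 and siScrt1 D, the pair with the highest mesenchymal markers, were left out together, with the log2 change at -0.41 (adjusted p = 0.0579). In that fit, with fewer libraries, the SE was 0.0723 and 25 of 12690 genes, or 0.197%, were called in all. No other pair was left out, so the part of these libraries in the loss was not tested.

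Across all tested genes 136, or 1.05%, were called at the threshold, 0.68% as lower and 0.371% as higher in siScrt1. Of the PP2A subunit genes, 1 of 10 was called, Ppp2r1b, as lower. At an unadjusted p below 0.05, 2 of the 10 genes (Ppp2r1b and Ppp2cb) were counted, against 11.1% of all tested genes. The groups did not overlap in scaled TPM for 1 of the 10 genes, against 3.38% of all tested genes (1.86% with siScrt1 lower). The log2 changes were negative for 6 and positive for 4 of the 10 genes with a median of -0.02, and 49.0% of all tested genes were negative with a median of 0.0035.

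**Figure D2:**
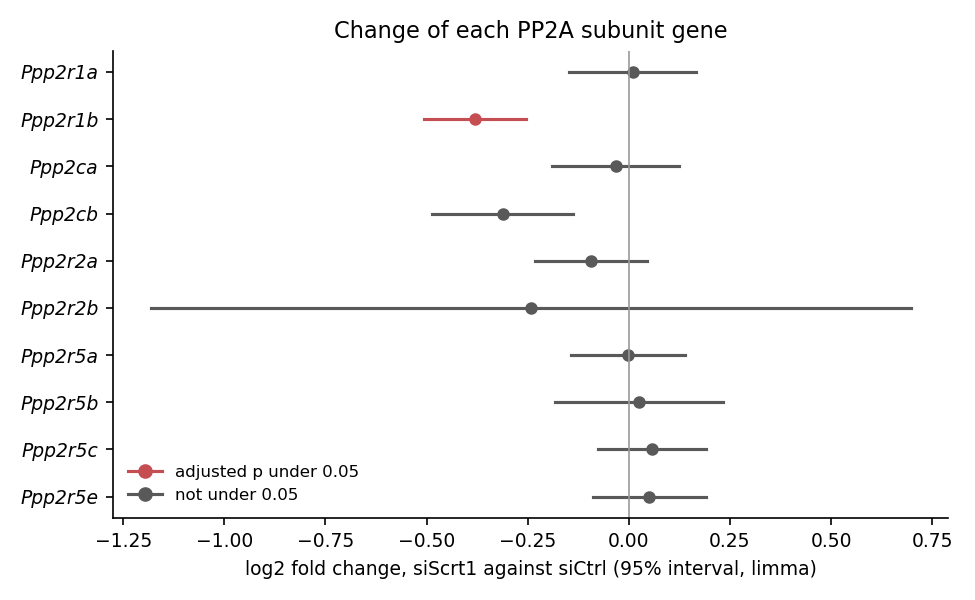
Log2 fold change of each PP2A subunit gene in siScrt1 against siCtrl (horizontal axis, limma), with its 95% interval as a line, red where the adjusted p was below 0.05. Ppp2r1b at -0.38 is the 1 gene in red, the Ppp2cb interval of -0.49 to -0.14 is below 0, and the interval of Ppp2r2b is the widest, from -1.18 to 0.70.

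Ppp2r1a, the major A subunit (the α scaffold), was at 64.9, 65.1, 81.3, 69.0 and 72.6 TPM in siCtrl 1 to 5. In siScrt1 A to E it was at 66.7, 77.4, 71.3, 69.2 and 70.9 TPM. The siScrt1 range lay wholly within the siCtrl range. The log2 change was 0.01 (SE 0.0728, limma, adjusted p = 0.977), and its 95% interval of -0.15 to 0.17 did not reach the value of Ppp2r1b. A change of up to 0.902 or 1.12 times the siCtrl level falls inside that interval.

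The ratio of the paralogs was compared within each library, where scaling between libraries cancels. The log2 ratio of Ppp2r1b to Ppp2r1a was -1.84, -1.72, -2.06, -1.89 and -1.81 in siCtrl 1 to 5. In siScrt1 A to E the ratio was -2.12, -2.42, -2.22, -2.17 and -2.33. The ratios did not overlap between groups and differed by -0.39, with an exact two-sided permutation p of 0.00794, the smallest that 5 against 5 libraries allow (adjusted over 2 ratios, 0.0159). Over the 5 same-numbered pairs an exact sign-flip test gave p = 0.0625, also the smallest it allows, so it cannot reach the threshold. The ratio uses the Ppp2r1b values given above and is not independent of them. In shares of the summed scaffold level, Ppp2r1b made up 21.6% ± 1.42 of siCtrl and 17.4% ± 1.20 of siScrt1 scaffold mRNA (SD over 5 libraries). The summed scaffold level itself overlapped between groups, at 89.9 ± 7.23 and 86.0 ± 3.63 TPM.

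**Figure D3:**
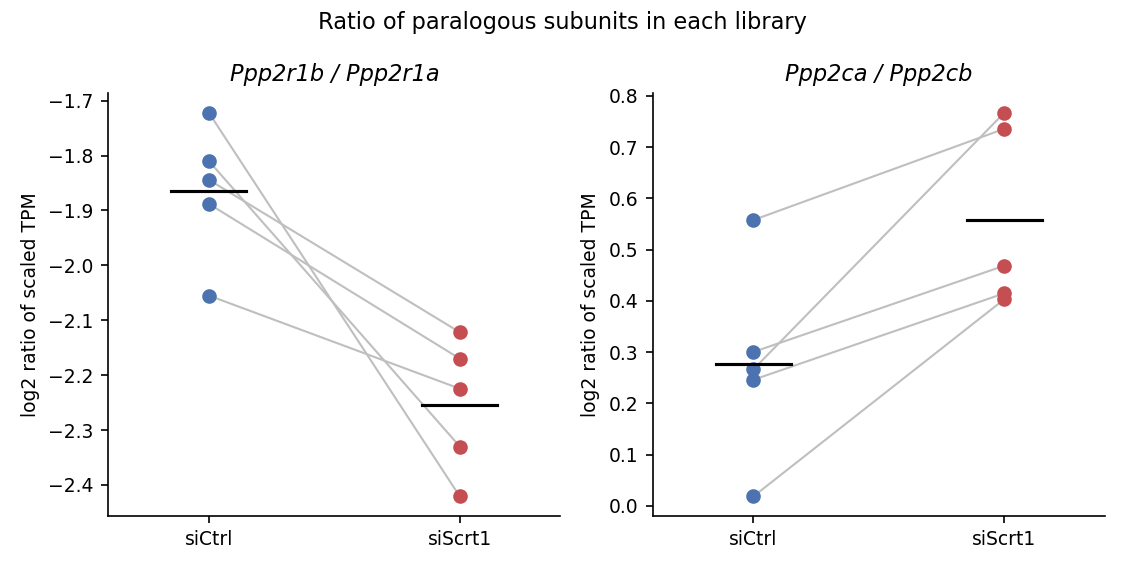
Log2 ratio of Ppp2r1b to Ppp2r1a and of Ppp2ca to Ppp2cb in each library (points, 5 per group) with the group mean as a bar and grey lines joining same-numbered libraries. The scaffold ratio is -2.06 to -1.72 in siCtrl and -2.42 to -2.12 in siScrt1 without overlap, and the catalytic ratio overlaps, at 0.018 to 0.56 in siCtrl and 0.40 to 0.77 in siScrt1.

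Ppp2cb encodes the β isoform of the catalytic subunit, the enzyme itself. It was at 31.9, 37.0, 34.3, 28.5 and 32.3 TPM in siCtrl 1 to 5 and at 27.0, 28.7, 27.3, 23.6 and 25.7 TPM in siScrt1 A to E. It was lower in the siScrt1 library of all 5 same-numbered pairs, but siScrt1 B (28.7 TPM) lay just above siCtrl 4 (28.5 TPM), so the groups overlapped. The log2 change was -0.31 (SE 0.0802, 95% interval -0.49 to -0.14), with an adjusted p of 0.109 in limma. With the replicate number as a block, which takes up differences shared by same-numbered libraries, its adjusted p was 0.0277 and 2 of the 10 genes were called, against 2.0% of all tested genes in that fit. The Ppp2cb values rested on 475 to 837 reads per library, whole numbers in all 10.

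Ppp2ca, the α catalytic isoform, was at 37.8, 37.5, 42.2, 42.0 and 38.8 TPM in siCtrl 1 to 5 and at 35.9, 37.9, 37.8, 39.3 and 43.7 TPM in siScrt1 A to E. The groups overlapped over most of their range. Its log2 change was -0.03 (95% interval -0.19 to 0.12, limma, adjusted p = 0.906). Its estimates of 334 to 544 reads per library were fractions in 9 of 10 libraries, so some of its reads were divided with another transcript.

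The log2 ratio of Ppp2ca to Ppp2cb had a mean of 0.28 in siCtrl and 0.56 in siScrt1. The difference of 0.28 had an exact two-sided permutation p of 0.0476 (0.0476 adjusted over 2 ratios), with overlapping groups, and 0.0625 in the exact sign-flip test over pairs. It passed 0.05 in 3 of the 10 fits that left out 1 library, namely without siCtrl 4, siScrt1 A or siScrt1 B. In the other 7 it was between 0.22 and 0.30 with exact permutation p-values of 0.0714 to 0.111. The summed catalytic level was 69.6, 74.5, 76.6, 70.5 and 71.1 TPM in siCtrl 1 to 5. In siScrt1 A to E the sum was 62.9, 66.6, 65.1, 63.0 and 69.4 TPM, with the highest siScrt1 value below the lowest siCtrl value. These sums are given as a description without a test.

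Ppp2r2a and Ppp2r2b encode B55 subunits, which are known for directing PP2A to phosphorylated cell cycle and cytoskeletal proteins. Ppp2r2a ranged from 28.0 to 32.2 TPM in siCtrl and from 25.5 to 29.6 TPM in siScrt1, with a log2 change of -0.09 (95% interval -0.23 to 0.05, limma, adjusted p = 0.631). Ppp2r2b, a B55 isoform best known from neurons, was near the lower end of the tested genes, with 13 to 76 reads per library. Its levels were 1.96, 2.87, 3.30, 1.23 and 2.62 TPM in siCtrl 1 to 5 and 2.71, 2.90, 2.77, 0.494 and 2.46 TPM in siScrt1 A to E. In each group the lowest library was the one with the highest mesenchymal markers, siCtrl 4 and siScrt1 D, and the part of these markers in the result was not tested. The log2 change was -0.24 with an interval of -1.18 to 0.70 (limma, adjusted p = 0.884). Levels between 0.441 and 1.62 times that of siCtrl lay inside this interval. The log2 change turned to 0.22 (SE 0.249) without siScrt1 D and was 0.0029 (SE 0.171) without siCtrl 4 and siScrt1 D, against an SE of 0.434 with all libraries.

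None of the 4 B56 member genes, whose products bind short motifs in their partner proteins, passed the threshold. Ppp2r5a ranged from 47.9 to 54.8 TPM in siCtrl and from 46.3 to 55.3 TPM in siScrt1. Ppp2r5b ranged from 26.3 to 35.2 and from 25.6 to 33.3 TPM, and Ppp2r5e from 24.4 to 31.6 and from 25.4 to 29.7 TPM. Ppp2r5c ranged from 53.8 to 59.2 TPM in siCtrl and reached 63.7 TPM in siScrt1 B, with a lowest siScrt1 value of 54.0 TPM. In all 4 the groups overlapped, with log2 changes from -0.0023 (Ppp2r5a) to 0.06 (Ppp2r5c) and adjusted p-values of 0.780 to 0.995 in limma. The widest of the 4 intervals was that of Ppp2r5b, -0.18 to 0.23. The summed Ppp2r5e estimates were whole numbers in 0 of 10 libraries, so some of its reads were divided with a transcript of another gene. Its log2 change was 0.05 on scaled counts and 0.0063 on log2(TPM + 1).

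Within the B56 sum, which was 164.0 ± 4.82 TPM in siCtrl and 167.3 ± 3.07 TPM in siScrt1, Ppp2r5c had the largest mean share, 33.9% and 34.7%. Ppp2r5a followed with 31.3% and 30.8%, then Ppp2r5b with 17.9% in both groups and Ppp2r5e with 16.9% and 16.6%. The B55 sum was 32.5 ± 2.03 and 30.5 ± 2.68 TPM. The B55 and B56 members together had 2.19 ± 0.145 times the summed scaffold level in siCtrl and 2.30 ± 0.0783 times in siScrt1. These ratios overlapped between groups. The sums and shares leave out Ppp2r2c, Ppp2r2d and Ppp2r5d, further B55 and B56 genes outside the 10 members. In siCtrl these had means of 18.6, 32.6 and 11.4 TPM. All sums are of mRNA levels over the 10 genes and say nothing about protein.

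Of the 10 genes, 7 had 1 annotated transcript and 3 had several, 14 transcripts in all. The Ppp2r1b transcript, 4089 bases long, was called in the fit across transcripts (log2 change -0.38, limma, adjusted p = 0.0193), in which 73 of 17578 transcripts, or 0.415%, were called. No other member transcript was called, and the log2 changes of the other 12 tested lay between -0.31 (Ppp2cb) and 0.10 (the transcript of Ppp2r5e of 6177 bases). The Ppp2r1b transcript lost its call with the replicate block (adjusted p = 0.0874) and without siCtrl 5 (0.0628), siScrt1 D (0.0555) or siScrt1 E (0.0532), at log2 changes of -0.39 to -0.36.

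For Ppp2r5c the transcript of 1639 bases carried 67.4% ± 5.04 of the gene's TPM in siCtrl and 66.8% ± 2.04 in siScrt1, and the transcript of 1704 bases the remainder. For Ppp2r5e the transcript of 1522 bases carried 70.6% ± 1.12 and 68.6% ± 2.04, and the transcript of 6177 bases the remainder. The ranges of these shares overlapped between groups for both genes. For Ppp2r2b the transcript of 1708 bases carried 77.9% ± 20.5 and 75.2% ± 24.1, the transcript of 1329 bases had 0 to 34.6 estimated reads and was at 0 in 2 libraries, and the transcript of 1507 bases was listed at 0 in all 10. These shares are estimates made by dividing shared reads, and the error of that division was not modelled.

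**Figure D4:**
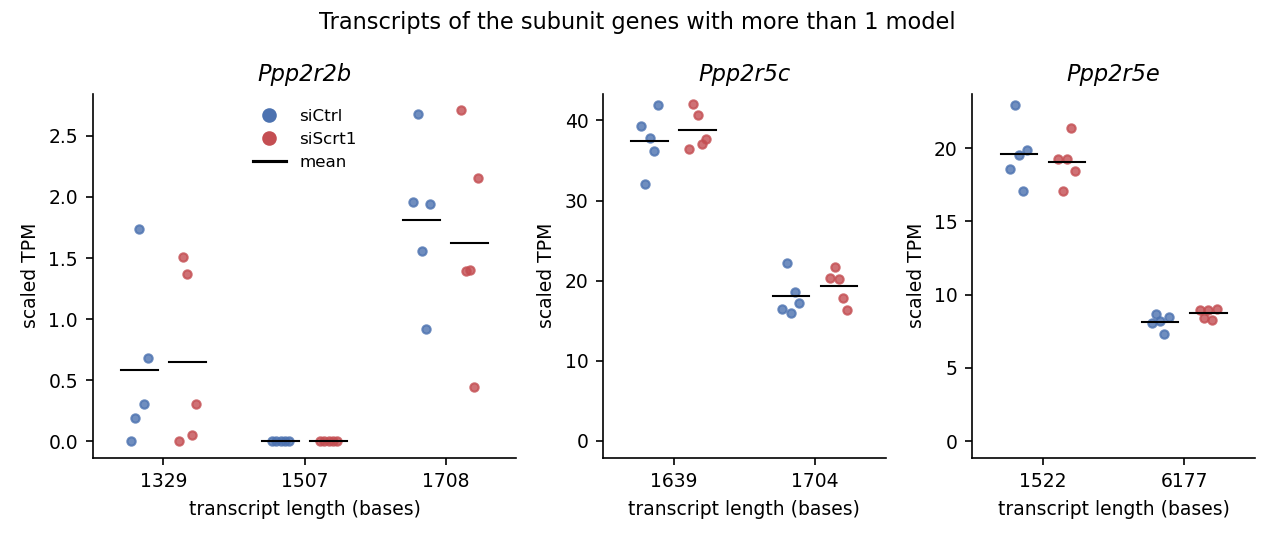
Scaled TPM of each annotated transcript of Ppp2r2b, Ppp2r5c and Ppp2r5e, named by its length in bases, 1 point per library (siCtrl in blue, siScrt1 in red, 5 each) with a bar at the group mean. The groups overlap for every transcript, and the Ppp2r2b transcript of 1507 bases lies at 0 throughout.

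The other genes of PP2A were read from a list of 36 symbols holding further regulatory subunits, assembly and methylation factors, inhibitors, and partners in the STRIPAK complex. In this list 36 genes were tested, 1 was called as lower and 0 as higher, against 0.68% and 0.371% of all tested genes. At an unadjusted p below 0.05 in limma, 7 were lower and 1 was higher, against 744 and 691 of the 12941 tested genes (11.1% in either direction). Of the 36 changes, 25 were negative with a median of -0.07, against 49.0% negative and a median of 0.0035 over all tested genes. Cip2a, which encodes an inhibitor of PP2A, was in the table but not tested, and no entry was matched for Arpp19.

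The called gene was Stk24, which encodes the kinase MST3 of the STRIPAK complex, where a striatin serves as the PP2A regulatory subunit. It was at 36.8 to 45.7 TPM in siCtrl and 27.2 to 32.2 TPM in siScrt1, without overlap. Its mean level fell by 29.3% and its log2 change was -0.50 (SE 0.0739, limma, adjusted p = 0.00568). Its log2 change was -0.45 without siCtrl 4 and siScrt1 D and it was then not called (adjusted p = 0.0606). Of the 12 STRIPAK partners tested, 10 had a negative and 2 a positive change, and 4 were below 0.05 before adjustment, against 49.0% negative and 11.1% below 0.05 over all tested genes. Besides Stk24 these were Fgfr1op2 (log2 change -0.35, adjusted p = 0.165), Sike1 (-0.18, 0.334) and Pdcd10 (-0.20, 0.379), none of which passed the threshold in limma. The negative lean was not particular to the STRIPAK partners. Negative changes were found in 6 of 9 other regulatory subunits, 4 of 5 assembly factors and 5 of 10 inhibitor genes. Of the 13 genes of the related phosphatases PP4 and PP6, 11 were negative and 2 positive.

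Among the other regulatory subunits, the striatin gene Strn3 had a log2 change of -0.26 (limma, adjusted p = 0.132), at 29.1 to 36.1 TPM in siCtrl and 25.2 to 27.6 TPM in siScrt1. The B56 gene Ppp2r5d, outside the 10 members, had a log2 change of 0.24 (limma, adjusted p = 0.205), with 10.8 to 12.7 TPM in siCtrl and 12.6 to 14.7 TPM in siScrt1. Neither passed the threshold. The genes that methylate and demethylate the catalytic subunit, Lcmt1 and Ppme1, had log2 changes of -0.16 and 0.03, and the activator gene Ptpa one of -0.01. The largest positive value in the list, 0.46, belonged to the second of 2 genes named Set, a PP2A inhibitor, with only 5 to 34 reads per library (limma, adjusted p = 0.722). The main Set gene, at 91.1 ± 8.82 TPM in siCtrl, had a log2 change of 0.02.

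**Figure D5:**
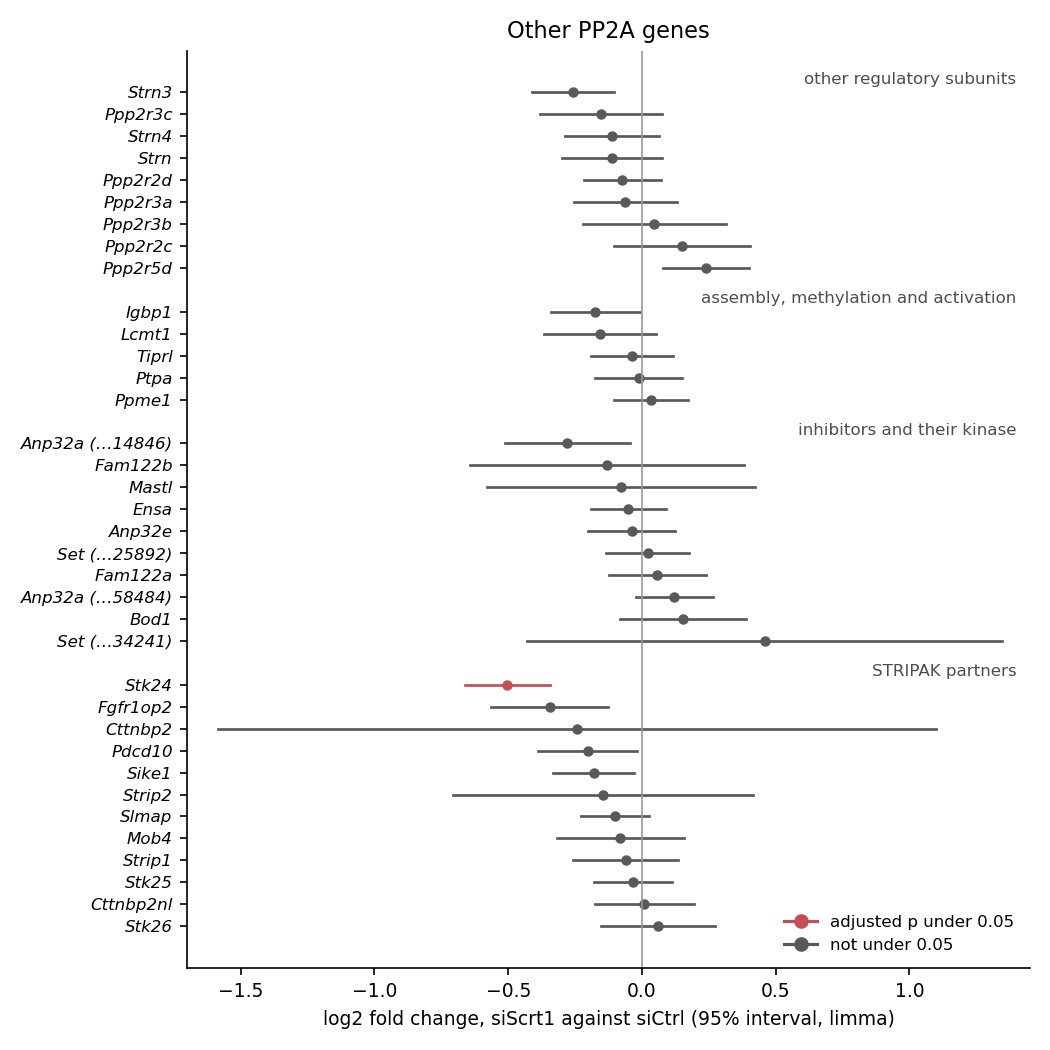
Log2 fold change in siScrt1 against siCtrl (horizontal axis, limma) with its 95% interval for the 36 tested genes of the other PP2A list, grouped by role, red where the adjusted p was below 0.05. Stk24 at -0.50 is the 1 gene in red, and the widest interval, -1.58 to 1.10, is that of Cttnbp2.

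Related serine/threonine phosphatases were read in the same way, with 21 genes of PP1, PP4, PP5, PP6 and calcineurin, all of them tested. In this list 1 gene was lower and 1 was higher at the threshold, against 0.68% and 0.371% of all tested genes. Of the 21 changes, 16 were negative with a median of -0.08, against 49.0% negative over all tested genes. Ppp3r1, the calcium-binding regulatory subunit of calcineurin, was lower, from 64.1 ± 4.84 to 51.1 ± 3.08 TPM (log2 change -0.40, SE 0.0626, limma, adjusted p = 0.00752). That change is of scaled counts. On log2(TPM + 1) the Ppp3r1 change was smaller, -0.32, and just under the threshold (limma, adjusted p = 0.0490). The calcineurin catalytic genes Ppp3ca, Ppp3cb and Ppp3cc had log2 changes of 0.01, 0.02 and 0.13 and did not pass the threshold. Ankrd52, an ankyrin-repeat subunit of PP6, was higher, from 11.6 ± 1.37 to 16.1 ± 1.37 TPM (log2 change 0.47, SE 0.0886, limma, adjusted p = 0.0236). Its call was lost without siCtrl 3 or any of siScrt1 B, C, D and E, at log2 changes of 0.44 to 0.47 and adjusted p-values of 0.0550 to 0.0858. Without siCtrl 4 and siScrt1 D, neither Ppp3r1 (-0.41, adjusted p = 0.0662) nor Ankrd52 (0.49, adjusted p = 0.0971) was called in limma. The PP4 and PP6 catalytic genes, Ppp4c and Ppp6c, had log2 changes of -0.09 and -0.13 and did not pass the threshold.

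The genes whose levels over the 10 libraries were most like those of Ppp2r1b were sought among 3615 other tested genes whose mean reached 50 CPM. They were Ppp3r1 (Pearson r = 0.967), Nedd4 (r = 0.966), which encodes a ubiquitin ligase, and Snrnp27 (r = 0.964), which encodes a protein of the spliceosome. The log2 changes of Nedd4 and Snrnp27 were -0.32 (limma, adjusted p = 0.0228) and -0.36 (limma, adjusted p = 0.00964). The points share their libraries, their scaling and the difference between the groups, so these correlations are a description without a p-value. The Nedd4 call was lost without siCtrl 5 or any of siScrt1 B, C, D and E, at adjusted p-values of 0.0569 to 0.0943. Without siCtrl 4 and siScrt1 D, the adjusted p-values were 0.152 for Nedd4 and 0.0662 for Snrnp27 (limma). The Snrnp27 call was also lost on the TPM scale, where its change was -0.20 with a pseudocount of 1 (adjusted p = 0.114) and -0.21 with a pseudocount of 0.1 (adjusted p = 0.118).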

How the data were processed

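Single-end RNA-seq of sorted β-cells was measured in 10 libraries, 5 per group, grouped by the genotype label. Reads had been assigned by the authors to Rnor6 transcripts with kallisto (version not given in the sources used here), after FastQC and Trimmomatic per the labels. The deposited signal values were estimated counts and TPM per transcript, which the authors had scaled across libraries in sleuth. Rows with annotation and no value (9363) were left out. Transcript lengths did not enter the fits on scaled counts. They enter TPM, which the ratio tests and the TPM alternatives used. Estimated counts were divided by what 1 read was worth in each library, which returned library totals, but only 49.9% of transcript values came out whole (tolerance 0.01), since kallisto divides reads between transcripts. The values were therefore not treated as counts. Intervals from reads would cover counting error only.

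The scaled counts of a gene's transcripts were added up, and limma 3.58.1 (trend, R 4.3.3) was applied to log2(value + 0.5) with a single group term. This scale understates fold changes of low genes. Genes needed the CPM of 10 reads in a median library in 5 libraries and 15 reads in all. Transcripts needed 5 reads in 47% of libraries. Adjusted p-values are Benjamini-Hochberg over all 12941 genes or 17578 transcripts, threshold 0.05. Ratios were compared by exact permutation over 252 splits (SciPy 1.17.1). On simulated data the gene fit recovered 94% and the transcript fit 89% of 200 features changed 2-fold in siScrt1 against siCtrl, on 12941 genes and 17578 transcripts. Unchanged features made up 2.59% and 3.78% of the calls. The simulated spread was fixed and not taken from these libraries. Smaller changes, such as those of the members, were not simulated.

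The members and lists were chosen with earlier results of these data known. The spelling of Cttnbp2 and Cttnbp2nl in the list was corrected after the first results. Named genes were the members, Scrt1, listed genes past the threshold, the largest rise and fall of each list, and the 3 genes most correlated with Ppp2r1b. The listed genes named with adjusted p-values above the threshold were chosen after their values were seen. The deposited table numbers the libraries 1 to 5 in each group (A to E in order). Deviations from the group means correlated at 0.131 to 0.351 for same-numbered and at -0.179 to 0.167 for other pairs, so the numbers were taken to pair the libraries. These ranges overlap, as siScrt1 B correlated more with siCtrl 3 (0.167) than with siCtrl 2 (0.131). Each siCtrl library nevertheless correlated most with the siScrt1 library of its own number. The main fit and the permutation tests left this pairing out, and only the replicate block and the sign-flip tests used it. The alternatives were other scalings, filters, pseudocounts, TPM, limma-voom, the replicate block and left-out libraries. Promoter windows came from RefSeq (GRCr8). The 8 of 10 members with an entry had 10 windows. Protein sequences were not used here.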

Additional observations from a re-analysis of the deposited data

Results flagged for a closer look

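Ppp2r2b stood at 0.494 TPM in siScrt1 D, against 2.46 to 2.90 TPM in the other 4 siScrt1 libraries. Its gap to the nearest library was 0.816 of the range of the group, above Dixon's critical value of 0.71 for 5 samples. Of 60 groups of 5 values checked, 1 met this mark, and chance gives about 3. The library held 13 Ppp2r2b reads and had the highest summed mesenchymal markers, 30.6 CPM, whose part in the value was not tested.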

How the results depend on the processing

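The log2 change of Ppp2r1b was between -0.41 and -0.35 in all 20 alternatives and was called in 19. Leaving out siCtrl 4 and siScrt1 D together ended the calls of Ppp2r1b (-0.41, adjusted p = 0.0579) and Scrt1 (-1.82, adjusted p = 0.0596), so that 0 members, 0 other PP2A genes and 0 related phosphatases were called. That fit had fewer libraries and called 25 genes in all. With the replicate block 2 members (Ppp2r1b and Ppp2cb) and 0 member transcripts were called, and the ratios of Ppp2r1b to Ppp2r1a (-0.39) and of Ppp2ca to Ppp2cb (0.28) had p = 0.0625, the smallest exact value over 5 pairs. The block changed no other call. With 1 library left out, Ppp2r1b ranged from -0.41 to -0.36, Scrt1 from -2.26 to -1.80, members called from 1 to 1, other PP2A genes from 1 to 1, related phosphatases from 1 to 2, member transcripts from 0 to 1, the scaffold ratio from -0.44 to -0.35 and the catalytic ratio from 0.22 to 0.35. The sign of 4 uncalled members changed. Ppp2r5a was 0.0014 with upper-quartile scaling, 0.0023 on log2(TPM + 1) and 0.0023 on log2(TPM + 0.1), and -0.030 to 0.036 with 1 library left out. Ppp2r1a ran from -0.023 to 0.063, Ppp2r5b from -0.015 to 0.095 and Ppp2r2b from -0.46 to 0.22 with 1 library left out, and Ppp2r2b was 0.0029 without siCtrl 4 and siScrt1 D. No scaling moved the median of all genes by 0.1. The second Set gene had no value under the filter of 50 reads on average. Ppp2r2b had the fewest reads of the members, 13 to 76 per library, and its SE fell from 0.434 to 0.219 with the replicate block.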
